A study of Macaca mulatta with 18 samples.

Results

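The genes described here are 10 listed genes of 2 kinds, the zinc finger transcription factor genes ZIC1, ZIC2 and ZIC4 and 7 genes that mark meningeal fibroblasts in the developing brain: the transcription factor genes FOXC1 and TBX18, the matrix genes LUM, DCN, POSTN and OGN, and PDGFRL. They were taken by symbol from an RNA-seq table of 22345 genes, and 9 of the 10 had values; OGN is not analysed here. Of these 9, 8 had a mean of 0 or more on the log2 scale and were tested with 13460 genes in all, and TBX18 lay under that filter. The question was whether the ZIC genes follow the meningeal genes between a pair of tissues.

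The animals were wild-type rhesus macaques, and RNA was taken from the fetal brain at embryonic day 84, with 3 libraries from tissue labelled CP and 3 from tissue labelled GZ. These letters usually stand for cortical plate and germinal zone in this field, and the labels do not spell them out. The series has 18 samples, and its Hi-C, DNase-seq and CTCF samples were not used here. The labels do not say that each library of a tissue stems from its own fetus, and the Y-linked values given below differ between libraries 2 and 3 of each tissue, so not all came from 1 fetus. Each p-value reflects how far these libraries vary, which may in part be technical.

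Values are log2 of FPKM, reads scaled to gene length and to library size, which the authors had normalized; a difference of 1 is a 2-fold change, and levels can be compared between genes because they are per length. Read depth is unknown, since the table carries no read totals, and library medians ran from 1.82 to 1.87. Marker genes mostly followed the tissue labels. NEUROD6, a factor of cortical projection neurons, was 9.52-fold higher in CP and 7 of 9 cortical plate neuron genes were higher in CP (5 without both libraries numbered 1), while BCL11B of that list was 3.36-fold higher in GZ. Of 5 dorsal radial glia genes, 3 were higher in GZ, PAX6 (1.98-fold) among them, HOPX was 1.59-fold higher in CP and VIM did not pass. The median log2 value of 8 Y-linked genes was 1.40 in CP library 1 and -0.17 in GZ library 1, 3.34 in CP library 2 and 3.63 in GZ library 2, and -1.78 in both libraries numbered 3. Libraries numbered 1 thus stood apart from each other, and member calls that changed without them are given below. The GZ libraries also held ventral forebrain transcripts: NKX2-1, a factor of the medial ganglionic eminence, was 1.18, -0.56 and -0.35 in CP, against 3.46, 4.60 and 2.38 in GZ.

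ZIC proteins are zinc finger transcription factors that act early in the neural tube and later in the medial forebrain, the cerebellum and the meninges. In humans, loss of ZIC1 with ZIC4 has been linked to Dandy-Walker malformation and ZIC2 mutations cause holoprosencephaly. The meninges are connective tissue sheets around the brain whose fibroblasts make collagen and proteoglycan matrix and send signals to the cortex below. In mice, loss of Foxc1 disturbs the meninges and the growth of the cortex. In the RefSeq gene table of assembly T2T-MMU8v2.0, ZIC1 and ZIC4 are neighbours with 0 protein-coding genes between them, and so are ZIC2 and ZIC5, and LUM and DCN.

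Neither the ZIC genes nor the meningeal genes all passed in 1 direction. ZIC1 and ZIC4 were higher in CP, ZIC2 did not pass the test, POSTN was far higher in CP, PDGFRL was higher in GZ, and FOXC1, LUM and DCN did not pass. Of the 8 members tested with limma at an adjusted p under 0.05, 3 passed with the higher level in CP and 1 with the higher level in GZ. Of all 13460 genes tested, 45.4% passed, 20.9% with the higher level in CP and 24.5% in GZ, so the members passed about as often as any gene.

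**Figure D1:**
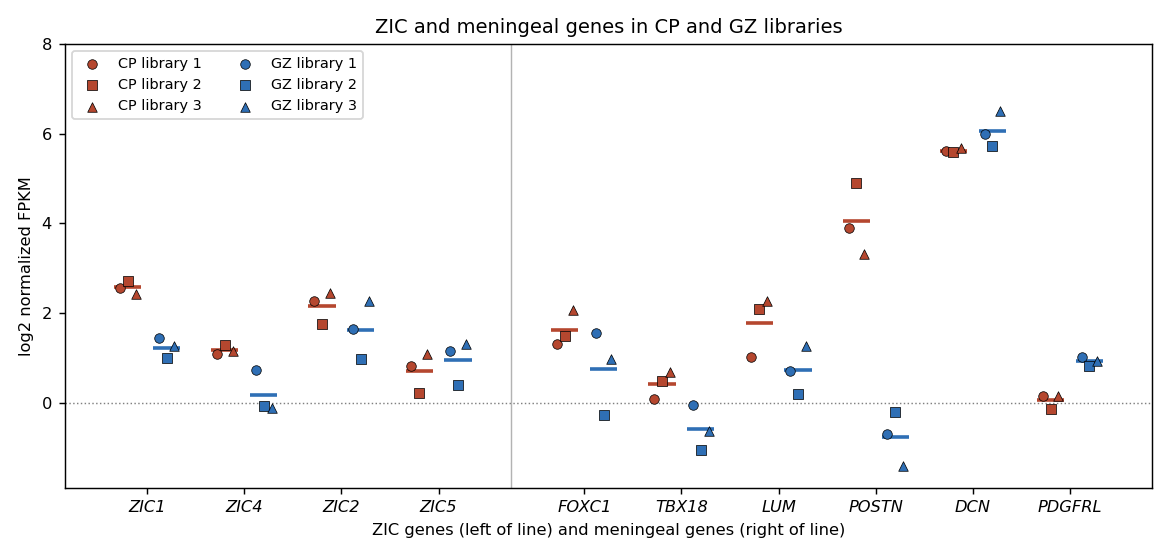
Log2 normalized FPKM of the ZIC genes (left of the line) and of the meningeal genes (right) in each library, with CP in red and GZ in blue, marker shapes for the library numbers and bars for the means of 3 libraries. ZIC1, ZIC4, TBX18 and POSTN have all CP libraries above all GZ libraries, DCN and PDGFRL have the opposite, and ZIC2, ZIC5, FOXC1 and LUM overlap.

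ZIC1 (ENSMMUG00000004742) had log2 values of 2.56, 2.72 and 2.43 in CP libraries 1, 2 and 3, against 1.43, 0.99 and 1.27 in the GZ libraries. Every CP library lay above every GZ library, as it did for 25.5% of all genes tested, and the CP libraries spread little. ZIC1 averaged 2.57 ± 0.14 in CP and 1.23 ± 0.22 in GZ (SD, n = 3 each), a 2.54-fold higher level in CP (log2 difference 1.34 ± 0.18 SE, limma adjusted p = 9.61e-04). The ZIC1 call held without any 1 of the 6 libraries, with differences between 1.23 and 1.45.

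ZIC4 (ENSMMUG00000004741), the neighbour of ZIC1, had log2 values of 1.09, 1.28 and 1.15 in CP, against 0.73, -0.08 and -0.11 in GZ. GZ library 1 came closest to the CP libraries and the groups did not overlap. ZIC4 was 1.99-fold higher in CP (log2 difference 1.00 ± 0.27 SE, limma adjusted p = 0.0196). The limma adjusted p of ZIC4 was 0.0628 without CP replicate 2, 0.0527 without CP replicate 3 and 0.0629 without GZ replicate 2, so that call rests on single libraries.

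ZIC2 (ENSMMUG00000014822) had log2 values of 2.27, 1.76 and 2.44 in CP, against 1.63, 0.98 and 2.28 in GZ. GZ library 3 lay above CP libraries 1 and 2, so the groups overlapped. The log2 difference of 0.52 ± 0.33 SE did not pass (limma adjusted p = 0.238), although it passed without GZ replicate 3 (difference 0.85, adjusted p = 0.0467). ZIC1 and ZIC2 had nearly the same level over the 6 libraries, with means of 1.90 and 1.89 on the log2 scale, at percentiles 50.4 and 50.3 of all genes in the table. ZIC4 was lower, at 0.68 and percentile 43.3.

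ZIC5, which is the neighbour of ZIC2 and not among the 10 genes, had log2 values of 0.82, 0.22 and 1.07 in CP, against 1.16, 0.39 and 1.30 in GZ. The groups overlapped, and the difference of -0.25 ± 0.32 SE did not pass (limma adjusted p = 0.568). Of the 4 ZIC genes described here, 2 passed with the higher level in CP and 0 with the higher level in GZ, with a median difference of 0.76 beside -0.05 over all genes tested. At an unadjusted p under 0.05 the count higher in GZ was also 0. The count higher in CP was 1 when CP replicate 2 or 3 or GZ replicate 2 was left out, and 3 without GZ replicate 3.

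Ratios within a library set the ZIC genes against each other. The log2 ratio of ZIC1 to ZIC4 was 1.40 ± 0.10 in CP and 1.05 ± 0.34 in GZ, a difference of 0.35 with overlapping groups (exact permutation test, 2-sided, p = 0.2). The log2 ratio of ZIC1 to ZIC5 was 1.87 ± 0.58 in CP and 0.28 ± 0.32 in GZ, and that of ZIC4 to ZIC5 0.47 ± 0.53 in CP and -0.77 ± 0.56 in GZ, both without overlap. The log2 ratio of ZIC2 to its own neighbour ZIC5 was 1.45 ± 0.09 in CP and 0.68 ± 0.26 in GZ, also without overlap. These were the 3 of 6 ZIC pairs with no overlap. Over every other gene tested, 91.7% of the ratios of ZIC1, 73.9% of those of ZIC4 and 25.8% of those of ZIC2 had none. The exact 2-sided permutation p was 0.1 for each of the 3 ZIC pairs, the smallest that 3 libraries against 3 allow. It was 0.2 after adjustment over the 6 pairs, so this test could not show a difference between ZIC genes.

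Among the meningeal genes, FOXC1 (ENSMMUG00000005778), a forkhead factor also found in cells of the vessel wall, had log2 values of 1.31, 1.49 and 2.07 in CP, against 1.54, -0.28 and 0.98 in GZ. GZ library 1 lay above CP libraries 1 and 2, and GZ library 2 was far below the rest. FOXC1 averaged 1.63 ± 0.39 in CP and 0.75 ± 0.93 in GZ (SD, n = 3 each), and the difference of 0.88 ± 0.45 SE did not pass (limma adjusted p = 0.146). Without GZ replicate 2 it was 0.37 (adjusted p = 0.385), and with all libraries it was 0.88.

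TBX18 (ENSMMUG00000010599), a T-box factor of meningeal and mural cells, had the lowest mean level of the 9 genes, at -0.08 on the log2 scale. Its values were 0.09, 0.48 and 0.67 in CP, against -0.06, -1.05 and -0.62 in GZ, with no overlap but little room between CP library 1 and GZ library 1. Without the filter on low values TBX18 was 1.99-fold higher in CP (log2 difference 0.99 ± 0.29 SE, limma adjusted p = 0.0317). TBX18 no longer passed when CP replicate 2 or 3 was left out (adjusted p = 0.0900 and 0.0902), nor when GZ replicate 2 or 3 was (0.0967 and 0.0611).

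The matrix genes went different ways. LUM (ENSMMUG00000016995), which codes for the small leucine-rich proteoglycan lumican, had log2 values of 1.02, 2.08 and 2.26 in CP, against 0.70, 0.20 and 1.26 in GZ. CP library 1 lay below GZ library 3, so the groups overlapped, and the difference of 1.07 ± 0.39 SE narrowly missed the threshold (limma adjusted p = 0.0544). LUM passed without CP replicate 1 (adjusted p = 0.0144), GZ replicate 3 (0.0286) or both libraries numbered 1 (0.0423).

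DCN (ENSMMUG00000016997), which codes for the related proteoglycan decorin and is the neighbour of LUM, had by far the highest level of the 9 genes, at percentile 92.8 of the table. Its values were 5.60, 5.59 and 5.68 in CP, against 5.99, 5.72 and 6.50 in GZ. All GZ libraries lay above all CP libraries, as for 30.9% of genes tested, though CP library 3 and GZ library 2 were close. The difference of -0.44 ± 0.18 SE did not pass (limma adjusted p = 0.0730), although it passed without GZ replicate 2 (-0.62, adjusted p = 0.0153). Without GZ replicate 3 it was smaller, at -0.23 (adjusted p = 0.0947).

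POSTN (ENSMMUG00000012307), which codes for the matrix protein periostin, had log2 values of 3.90, 4.91 and 3.32 in CP, against -0.69, -0.21 and -1.41 in GZ. POSTN was 28.1-fold higher in CP (log2 difference 4.81 ± 0.44 SE, limma adjusted p = 1.89e-04), and the fold rests on low GZ values; with a pseudocount of 1 the difference was 3.45. Within each tissue POSTN was highest in library 2 and lowest in library 3, the reverse of the order of LUM and DCN in GZ.

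PDGFRL (ENSMMUG00000001153), which codes for a secreted protein resembling the platelet-derived growth factor receptor, had log2 values of 0.14, -0.14 and 0.15 in CP, against 1.02, 0.82 and 0.92 in GZ. The libraries of each tissue lay close together and did not overlap. PDGFRL was 1.83-fold higher in GZ (log2 difference, CP minus GZ, -0.87 ± 0.21 SE, limma adjusted p = 0.0117), and the call was lost without both libraries numbered 1 (adjusted p = 0.0750).

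**Figure D2:**
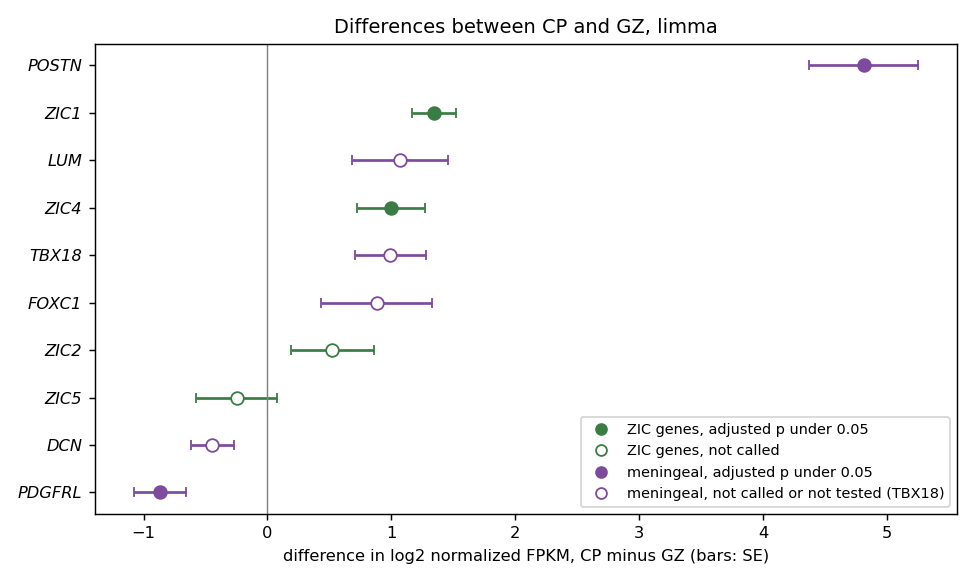
Difference in log2 normalized FPKM between CP and GZ for the ZIC genes (green) and the meningeal genes (purple), with bars for the standard error of limma, filled points for genes with an adjusted p under 0.05 and open points for the others; TBX18 is drawn from the fit without a filter. POSTN stands at 4.81, ZIC1, LUM, ZIC4, TBX18 and FOXC1 lie between 0.88 and 1.34, and ZIC5, DCN and PDGFRL lie below 0.

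Whether a ZIC gene moved like a meningeal gene was tested on the ratio of the pair in each library. The ratios of ZIC1 to 3 of the 6 meningeal genes overlapped between tissues. The log2 ratio of ZIC1 to TBX18 was 2.16 ± 0.36 in CP and 1.81 ± 0.29 in GZ. That to FOXC1 was 0.95 ± 0.50 in CP and 0.48 ± 0.71 in GZ, and that to LUM 0.79 ± 0.70 in CP and 0.51 ± 0.44 in GZ. The exact permutation p of these 3 ratios was 0.3, 0.4 and 0.6, which does not show that the genes moved alike. The other 3 ratios did not overlap. The log2 ratio of ZIC1 to PDGFRL was 2.21 higher in CP than in GZ, that to DCN 1.79 higher, and that to POSTN fell by 3.47.

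ZIC4 and ZIC2 showed the same split. The ratios of ZIC4 to TBX18, LUM and FOXC1 differed between CP and GZ by 0.00, -0.07 and 0.12 on the log2 scale, and those of ZIC2 by -0.47, -0.54 and -0.36, all with overlap. The ratios to PDGFRL and DCN were higher in CP without overlap, by 1.86 and 1.44 for ZIC4 and by 1.39 and 0.97 for ZIC2, and the ratios to POSTN were lower without overlap, by -3.82 for ZIC4 and -4.29 for ZIC2. Of 18 pairs 9 thus had no overlap, each with an exact 2-sided permutation p of 0.1, the smallest possible, and 0.2 after adjustment over the 18 pairs. Set over every other gene tested, 91.7% of the ratios of ZIC1, 73.9% of those of ZIC4 and 25.8% of those of ZIC2 had no overlap, beside 3 of 6 meningeal genes for each. The 9 pairs that overlapped are not shown to move alike, since the exact test cannot pass the threshold with 3 libraries against 3.

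**Figure D3:**
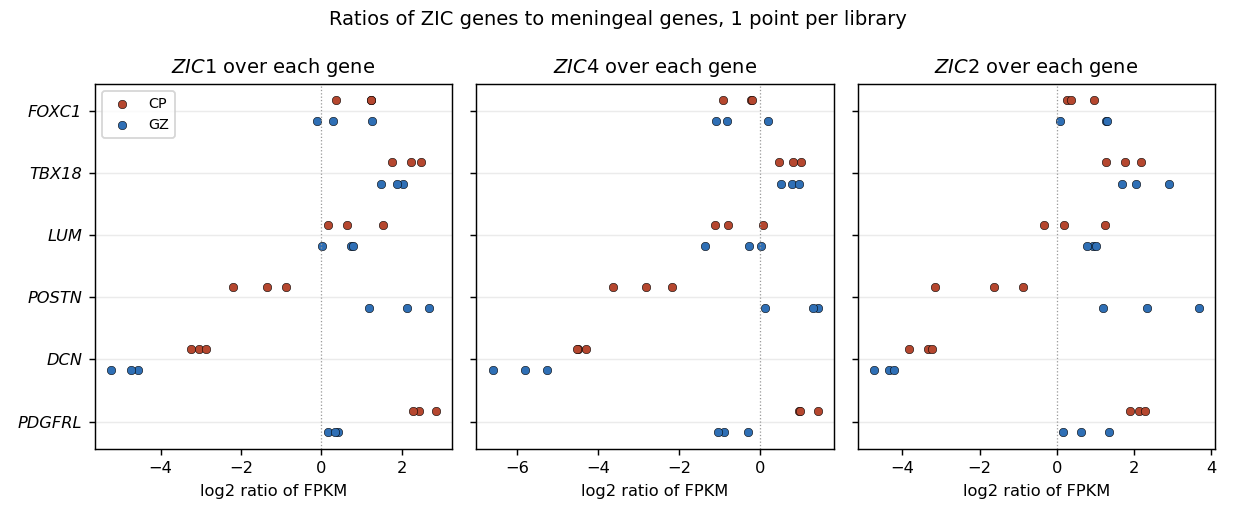
Log2 ratio of ZIC1, ZIC4 and ZIC2 (panels) to each meningeal gene (rows), with 1 point per library, CP in red above GZ in blue. Ratios to FOXC1, TBX18 and LUM overlap between the tissues, ratios to POSTN lie lower in CP, and ratios to DCN and PDGFRL lie higher in CP.

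Within a tissue the libraries give a view that does not use the CP to GZ difference. In GZ, ZIC1 ranked library 1 over 3 over 2, and FOXC1, TBX18 and PDGFRL had the same order, 3 of 6 meningeal genes against 11.5% of all genes tested. In CP, ZIC1 ranked library 2 over 1 over 3, an order that POSTN shared and the other 5 did not, against 17.5% of genes tested. ZIC2 and ZIC5 ranked the libraries 3 over 1 over 2 in both tissues, and DCN did so as well. LUM had this order in GZ and PDGFRL had it in CP, so that 2 of 6 meningeal genes shared it in each tissue, beside 18.9% of all genes tested in CP and 24.8% in GZ. Both matches in CP rest on small gaps. DCN was 5.60 and 5.59 in CP libraries 1 and 2, and PDGFRL was 0.14 and 0.15 in CP libraries 1 and 3. ZIC4 had the full order of none of the 6 meningeal genes in either tissue, an order that 16.2% of genes tested shared in CP and 18.7% in GZ. ZIC4 was nearly level in GZ libraries 2 and 3, at -0.08 and -0.11, so its order in GZ is uncertain. Over the 6 pairs of libraries within tissues, the median meningeal gene was ordered like ZIC1 in 3.5 pairs, like ZIC4 in 3.5 and like ZIC2 in 4.5, beside a median of 3 over all genes tested for each. These orders are a description of 6 libraries.

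GZ library 2 was the lowest GZ library for 3 of 4 ZIC genes and for 4 of 5 meningeal genes tested, against 36.3% of all genes tested. It was also the lowest for all 9 endothelial genes and for 7 of 9 cortical plate neuron genes. It was the highest for 5 of 6 ventral telencephalon genes, against 29.7% of all genes tested. How far vessel, cortical or ventral tissue in that library bears on the ZIC and meningeal values was not tested. Without GZ replicate 2 the differences of ZIC1, ZIC4 and ZIC2 were 1.23, 0.86 and 0.20, and those of LUM and FOXC1 were 0.81 and 0.37.

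**Figure D4:**
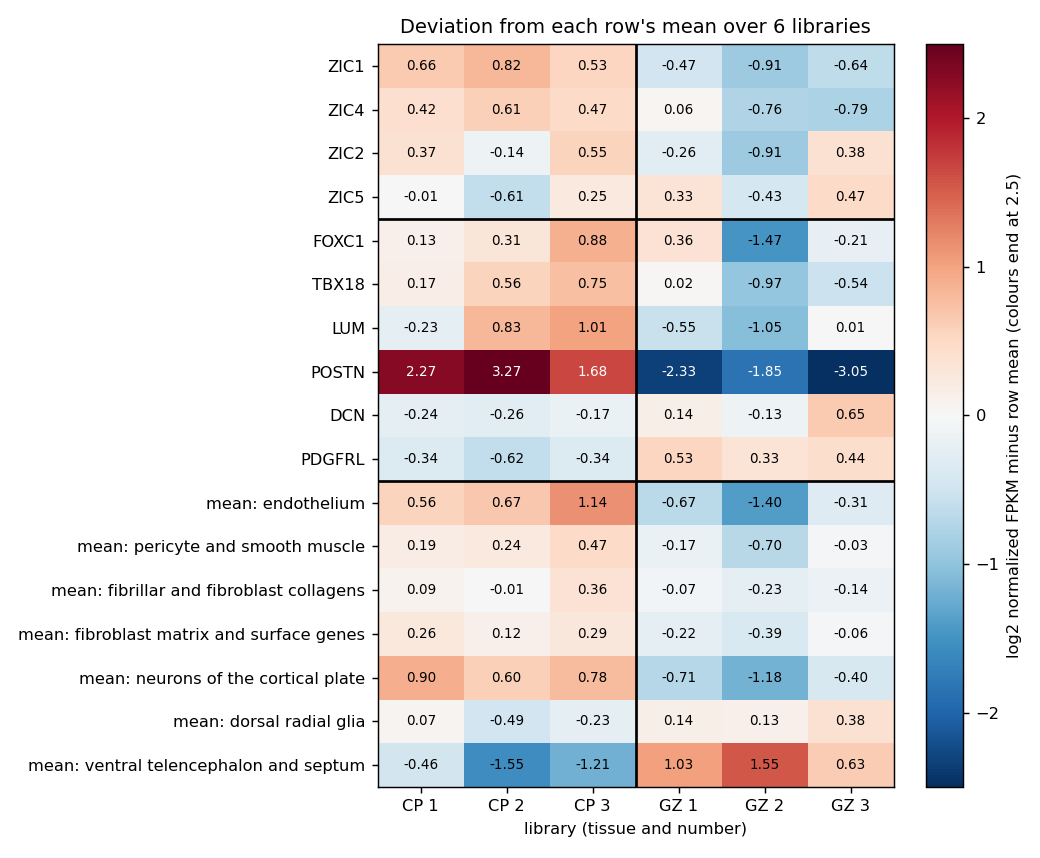
Deviation of each gene, or of the mean of a marker list, from its own mean over the 6 libraries on the log2 scale, with CP libraries left of the line and GZ libraries right of it; red is higher and blue lower, and colours end at 2.5. ZIC1, ZIC2, FOXC1, TBX18 and LUM are lowest in GZ library 2, where the endothelium mean is also lowest at -1.40 and the ventral mean is highest at 1.55.

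By likeness of pattern over the 6 libraries, none of the 5 genes nearest to ZIC1, ZIC4 or ZIC2 was a member or on a list of meningeal or fibroblast genes, though some such genes were near. Likeness was the root mean square difference between log2 values after each gene was set to its own mean, over 11091 other tested genes with a symbol. It depends on the size of a change as well as on its direction. POSTN had the direction of ZIC1 and a larger difference, 4.81 against 1.34, so its far rank below does not mean an opposite pattern. TBX18 lay under the filter and was not ranked, so the medians of the meningeal genes below leave it out. The mean log2 ratio of ZIC4 to TBX18 was 0.76 in both tissues. The 5 nearest to ZIC1 were SEPTIN4, CEP126, TMEM121, PTPRG and MAP7D2, at distances of 0.07 to 0.09. The 5 nearest to ZIC4 were TESC, MYRIP, S100A16, INPP5J and TTLL10, and the 5 nearest to ZIC2 were MTURN, PNOC, C6H5orf24, CHL1 and BCAT1. ZIC4 ranked 429 for ZIC1, ahead of LUM at 1845 and FOXC1 at 2461, while DCN, PDGFRL and POSTN ranked 8713, 10203 and 11048. For ZIC2 the nearest of these genes was ZIC5, at rank 1217, and FOXC1 came at 2869. COL3A1 ranked 7 and COL6A1 41 for ZIC2, and LAMA2 ranked 66 and NGFR 94 for ZIC1. The 9 endothelial genes had a median rank at percentile 7.7 for ZIC1, 24.9 for ZIC4 and 57.2 for ZIC2, and the 5 meningeal genes at 78.6, 81.2 and 42.6 in the same order. Near medians were not particular to endothelium. The 4 Cajal-Retzius neuron genes had medians of 19.1, 23.75 and 18.15 in that order, and the 3 erythroid genes 17.6, 16.2 and 63.5. For ZIC1 the 9 collagen genes had a median at percentile 24.3 and the 12 fibroblast matrix genes at 23.6. For ZIC2 these medians were 77.1 and 27.85, so most collagen genes were far from ZIC2 although COL3A1 and COL6A1 were near. The 6 tested genes of meningeal signals and retinoid metabolism, NGFR among them, had a median at percentile 43.9 for ZIC1.

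The profile averaged over the 5 tested meningeal genes was nearest to SLC1A4, KCND2, ATIC, MGAT4A and COL9A1. ZIC1 ranked 160 of 11087 genes and ZIC4 461. ZIC2 ranked 2792 and ZIC5 7894. POSTN has the largest log2 difference of the 5 genes in this average, at 4.81. Those of LUM, FOXC1, DCN and PDGFRL were 1.07, 0.88, -0.44 and -0.87, so the higher average in CP comes mostly from POSTN. Taken singly, the 5 genes had a median rank at percentile 78.6 for ZIC1 and 81.2 for ZIC4.

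Other fibroblast genes also went both ways. Of all genes tested 20.9% passed with the higher level in CP and 24.5% in GZ, so calls in both directions are not particular to these lists. Of 9 fibrillar and fibroblast collagen genes tested, 3 were higher in CP, COL15A1 (3.11-fold), COL12A1 (3.08-fold) and COL5A2 (1.83-fold), and COL5A1 was 2.60-fold higher in GZ. When CP replicate 3 or GZ replicate 2 was left out, 2 collagen genes were higher in GZ. COL1A1 and COL1A2, the main collagen genes of fibroblasts, did not pass: COL1A1 was 0.89, 1.08 and 2.05 in CP, against 1.72, 2.46 and 1.74 in GZ, and COL1A2 differed by -0.13 ± 0.27 SE (limma adjusted p = 0.716). The collagen list summed to between 67.2 and 86.4 FPKM in the CP libraries and between 66.8 and 72.2 in the GZ libraries. Among 2 other small leucine-rich proteoglycan genes tested, BGN, the biglycan gene, was 3.87-fold higher in CP and PRELP did not pass; without CP replicate 1 or both libraries numbered 1, 1 of the 2 was higher in GZ.

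Of 12 tested genes of fibroblast matrix and surface, 5 passed with more RNA in CP and 2 with more in GZ, beside 20.9% and 24.5% of all genes tested. LAMA2, a laminin gene, was 2.98-fold higher, FN1, the fibronectin gene, 2.96-fold and PDGFRB, the receptor of pericytes and fibroblasts, 2.42-fold higher in CP, while MFAP4 (1.74-fold) and FBLN1 (1.69-fold) were higher in GZ. This list summed to between 355.6 and 412.4 FPKM in CP and between 282.1 and 317.1 in GZ. The count higher in GZ was 1 when CP replicate 2 or 3 or any 1 of the GZ libraries was left out, and the count higher in CP was 3 without both libraries numbered 1. Of 6 tested genes of meningeal signals and retinoid metabolism, NGFR was 2.43-fold higher in CP and BMP7, a bone morphogenetic protein, 2.07-fold higher in GZ; without CP replicate 3, 2 genes were higher in GZ.

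Most other meningeal transcription factor genes were low. Of 7 measured, 5 lay under the filter, among them FOXC2 and TBX15, and neither of the 2 tested passed; EBF1 differed by 0.62 ± 0.28 SE (limma adjusted p = 0.103). At an unadjusted p under 0.05, 0 of those 2 passed, and without GZ replicate 1 or both libraries numbered 1, 1 was higher in CP. ALDH1A2, the retinoic acid synthesis gene of the meninges, also lay under the filter, as did FAP, ISLR and MFAP5. In bulk tissue, fewer cells of a type and less RNA per cell cannot be told apart.

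Most vessel genes tested had the same direction between tissues as ZIC1, ZIC4 and POSTN, as did 7 of 9 cortical plate neuron genes. Of all genes tested 20.9% passed with the higher level in CP. All 9 endothelial genes tested were higher in CP (8 without both libraries numbered 1), led by FLT1, a receptor for vascular growth factor, at 4.27-fold, and the list summed to between 103.0 and 155.1 FPKM in CP and between 27.4 and 54.4 in GZ. Of 6 pericyte and smooth muscle genes 4 were higher in CP, led by RGS5 at 3.60-fold, TAGLN did not pass, and MYH11, a smooth muscle myosin gene, was 3.37-fold higher in GZ. When CP replicate 1 or 3 or GZ replicate 1 was left out, 2 were higher in CP, and 3 were without both libraries numbered 1. Within tissues, 0 of 9 endothelial genes had the library order of ZIC1 in CP or in GZ, and 1 had that of ZIC4 in CP and 0 in GZ. The order of ZIC2 was shared by 4 of 9 in CP and 9 of 9 in GZ. The pericyte and smooth muscle list summed to between 66.2 and 80.6 FPKM in CP and between 29.5 and 45.2 in GZ. CNN1 and DES of that list lay under the filter, and for both all GZ libraries lay above all CP libraries. The part of vessel cells in the ZIC and meningeal differences was not tested.

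Markers of other cells in which ZIC genes are known were mixed, beside 20.9% of all genes tested higher in CP and 24.5% in GZ. Of 4 tested Cajal-Retzius neuron genes, RELN, the reelin gene, was 2.17-fold and EBF2 1.54-fold higher in CP, while TP73, which marks Cajal-Retzius cells of the cortical hem, was 1.34, 1.61 and 0.62 in CP, against 1.83, 2.22 and 0.64 in GZ. Without both libraries numbered 1 the count higher in CP was 1. That list summed to between 92.5 and 112.7 FPKM in CP and between 61.8 and 76.1 in GZ. Of 3 tested hem and choroid plexus genes, RSPO3, a Wnt-enhancing ligand, was 7.54-fold higher in CP, and 5 others lay under the filter; without GZ replicate 3, 1 gene was higher in GZ. Of 6 tested ventral telencephalon and septum genes 5 had more RNA in GZ and 0 passed with more in CP, also 0 at an unadjusted p under 0.05, opposite to ZIC1 and ZIC4. The part of these cells in the ZIC values was not tested.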

How the data were processed

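The authors deposited RNA values as log2 FPKM, normalized with cqn, per the labels. Counting and gene annotation: not given in the sources used here. The submitters' processing notes list STAR and the build Mmul_8.0.1, with no role for either. Groups came from sample titles. Symbols came from a table of gene names, which held 14700 of the 22345 identifiers (65.8%).

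The 13460 genes whose mean over the 6 libraries was at least 0 were tested with limma 3.58.1 in R 4.3.3 (lmFit, eBayes with trend), CP minus GZ, without a block or pseudocount, with Benjamini-Hochberg adjustment over all of them. On simulated data with these means and spreads, 200 of 13460 genes were changed. The test found 74% of genes changed by 1 log2 unit and 91% of those changed by 2, and made 9 false calls among the unchanged genes. In the real data 6113 genes were called, many more than were changed here, so these rates need not hold for them. Ratios were tested with exact permutation in scipy 1.17.1. Sums of lists are of FPKM.

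Members and lists were chosen with earlier results of these data known. Named genes are the members, ZIC5, up to 3 called genes per list and direction or the 1 with the largest difference, and the 5 nearest in pattern; others named were picked after their values were seen. Some results under this rule are not reported here. No sequence is shown, and the Hi-C, DNase-seq and CTCF files were not used here.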

Additional observations from a re-analysis of the deposited data

How the results depend on the processing

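No member changed direction under any alternative that gave it a value. Leaving out each library in turn gave 2243 to 2855 genes higher in CP, 2261 to 3146 higher in GZ, 2 to 5 members higher in CP, 1 to 2 higher in GZ, and 9 to 10 of 18 ratios without overlap. Without both libraries numbered 1, 1716 genes were higher in CP and 1647 in GZ, with 4 members higher in CP and 0 in GZ, and 12 ratios had no overlap; with 4 libraries the exact test cannot go below p = 0.333. A filter at a mean of 1 left 0 members higher in GZ, since PDGFRL was not tested. The shared replicate numbers were not taken as pairs, because number 1 did not correlate: deviations from the tissue means correlated at -0.38 for number 1, and at 0.30 and 0.35 for numbers 2 and 3. With the replicate block 2817 and 3300 genes were called, and 4 members were higher in CP and 2 in GZ, LUM (adjusted p = 0.0357) and DCN (0.0371) being added. Median centring, quantile normalization, a pseudocount of 1 and no variance trend kept the member counts at 3 and 1. Without a filter 4 members were higher in CP. Settings that combine no filter with left-out libraries for TBX18 were chosen after seeing the data. Of 131 values for single ZIC and meningeal genes, 8 lost and 7 gained a call. Depth is unknown, so precision rests on 3 libraries per tissue.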
